A study of Gossypium herbaceum with 12 samples.

Results

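Ribosomes, translation factors, enzymes of tRNA, helicases, RNA-binding proteins and histone genes were followed in cotton leaf as a group of 33 probe sets, out of 24029 on the array that are not controls. A probe set is a group of short probes that reads 1 transcript or several alike transcripts. The 33 were all the probe sets whose annotation in the study's tables of genes that differ between the accessions, 1712 probe sets in all, holds one of the words ribosomal protein, 60S, 40S, translation initiation, elongation factor, tRNA, RNA binding, helicase, splicing or histone, with zinc finger proteins and transcription factors left out. By class, 5 are cytosolic ribosomal proteins, 5 are chloroplast or 30S ribosomal proteins, 6 are translation factors, 3 are tRNA enzymes, 4 are helicases, 6 are RNA-binding or splicing proteins and 4 are histones or act on histones. By origin, 6 had been tabulated as higher in Vagad and 12 as higher in RAHS-14 in the irrigated condition, and 4 as higher in Vagad and 15 as higher in RAHS-14 in the drought condition. Of the 33, 4 stood in tables of both conditions, 14 in those of the irrigated condition alone and 15 in those of the drought condition alone. The members were thus chosen by measured differences between the accessions in these same plants, and the difference that placed a gene in a table is given as a description, without a test. The same holds for the difference of the drought responses, Vagad minus RAHS-14, since it contains the difference that chose each member.

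The leaves came from potted plants of *Gossypium herbaceum*, a diploid cotton, all 1 month old, with 3 plants in each of 4 groups and 1 plant per array. The groups were Vagad under drought, Vagad irrigated, RAHS-14 under drought and RAHS-14 irrigated. Vagad is the accession labelled tolerant and RAHS-14 the one labelled sensitive, and each stands for its type alone, so tolerance and any other trait in which the accessions differ cannot be told apart. Plants of the drought groups got water in alternate weeks only, and those of the irrigated groups got it daily. All values below are log2 normalized signals or differences between them. A call needed a fold of 2 or more and an adjusted p under 0.05 (limma, Benjamini-Hochberg, 12599 probe sets tested), and "rose" and "fell" are used for an adjusted p under 0.05 at any fold.

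Plants 1 and 2 of the Vagad drought group gave arrays unlike the other 10. Their median signals as deposited were 323 and 346, against 61.3 to 74.7 on the others, and their median Spearman correlations with the others, across probe sets, were 0.594 and 0.438, against 0.944 to 0.957. Tag controls, which have no cotton target, read 89.0 and 96.7 there, against 1.36 to 7.43. For control transcripts, the 3' signal over the 5' signal, as a log2 ratio, was 0.395 and -1.09 there, 2.30 on Vagad drought plant 3 and 1.76 to 2.31 on the other 9 arrays. These 2 plants were left out of the fit and are given apart, so the Vagad drought group is plant 3 alone, whose spread is assumed to be that of the other groups. The prior SD of the fit was 0.131 with 10 arrays and 0.565 with all 12. The few leaf markers in the annotation were 6 probe sets, of which 3 passed the filter on dim signals: the D1 subunit of the photosystem (Ghi.10802.1.S1_at) read 6.89 to 8.56 on the 10 arrays, and a pair of chlorophyll-binding probe sets was at the floor on 8 and 9 of them. The 4 probe sets called seed or fiber markers here were picked by words such as seed storage or fiber in the annotation. Apart from a fiber protein, they carry the family name protease inhibitor/seed storage/lipid transfer protein, which does not by itself mark a seed gene. The fiber protein (GbaAffx.6.1.S1_s_at) read 12.55 to 13.10 on the 10 arrays, so leaf identity is not shown by these lists in either direction.

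As background, the ribosome reads messenger RNA and builds protein. In plants it exists as a cytosolic form, made of a 60S and a 40S subunit, and as smaller bacterial-type forms in chloroplasts and mitochondria, whose small subunit is called 30S in the chloroplast. Initiation factors bring the ribosome to the start codon, elongation factors move it along, and tRNA ligases load the amino acids. Helicases unwind RNA or DNA, RNA-binding proteins of the SR type choose splice sites, box H/ACA proteins such as Gar1 and NOP10 guide the modification of ribosomal RNA, and histones pack DNA. Genes of the translation machinery are known to respond to water deficit and growth, and histone genes are known for high expression in dividing cells.

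Of the 33 probe sets, 27 passed the filter, which asked for a signal above the array's median on at least 3 of the 10 arrays. The other 6 were NOP10, 1 of the 60S proteins, all 3 elongation factors and ZWILLE. In RAHS-14, drought against irrigated, 1 of 27 was called, 3.70%, beside 8.08% of all probe sets tested. In Vagad, plant 3 against the irrigated plants, 2 of 27 were called, 7.41%, beside 10.3% of all. The median difference of the 27 was -0.01 in RAHS-14 and 0.36 in Vagad, against 0.00 for all probe sets in both. With plants 1 and 2 of Vagad drought included, the Vagad median turned to -0.98, and that of all probe sets was -0.74. At any fold, 4 rose and 8 fell in RAHS-14 (44.4% of 27, beside 36.9% of all, of which 18.7% were higher and 18.2% lower), and 9 rose and 1 fell in Vagad (37.0% of 27, beside 29.7% of all, of which 14.8% were higher and 15% lower). A fit of all 12 arrays called no member in RAHS-14 (1.01% of all probe sets) and in Vagad only COLD, CIRCADIAN RHYTHM, AND RNA BINDING 2 (4.73% of all). In RAHS-14 the drought and irrigated groups did not overlap for 6 higher and 9 lower of the 27 members. Over all 12599 probe sets tested, the same counts were 3436 and 3349. Drought plants of both accessions also served in the tables that chose the members, so the drought responses share arrays with the choice. Markers differed as well. Of the 3 leaf markers tested, chlorophyllide a oxygenase (Ghi.834.1.A1_at) fell by 1.26 in RAHS-14 (adjusted p = 8.31e-05) and differed by -0.06 in Vagad, a second probe set of that enzyme (Gra.2634.1.S1_at) fell by 0.89 in Vagad (adjusted p = 0.00859) and differed by -0.25 in RAHS-14, and the D1 subunit differed by 0.64 and 0.59 in Vagad and RAHS-14, neither past the limit. Of the 3 seed or fiber markers tested, a lipid transfer protein (GhiAffx.44558.1.S1_s_at) rose by 0.37 in Vagad (adjusted p = 0.0396) and by 0.65 in RAHS-14 (adjusted p = 0.000342), and the fiber protein rose by 0.47 in Vagad (adjusted p = 0.0138) and differed by -0.22 in RAHS-14. The third, GhiAffx.6046.1.S1_at, passed the filter on irrigated arrays alone and is given no test: it read 3.37 in Vagad drought plant 3, against 5.84 to 6.34 in Vagad irrigated plants, and 3.37 to 4.87 in RAHS-14 drought plants, against 5.58 to 6.51 in RAHS-14 irrigated plants. The part of such markers in the members' values was not tested.

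**Figure D1:**
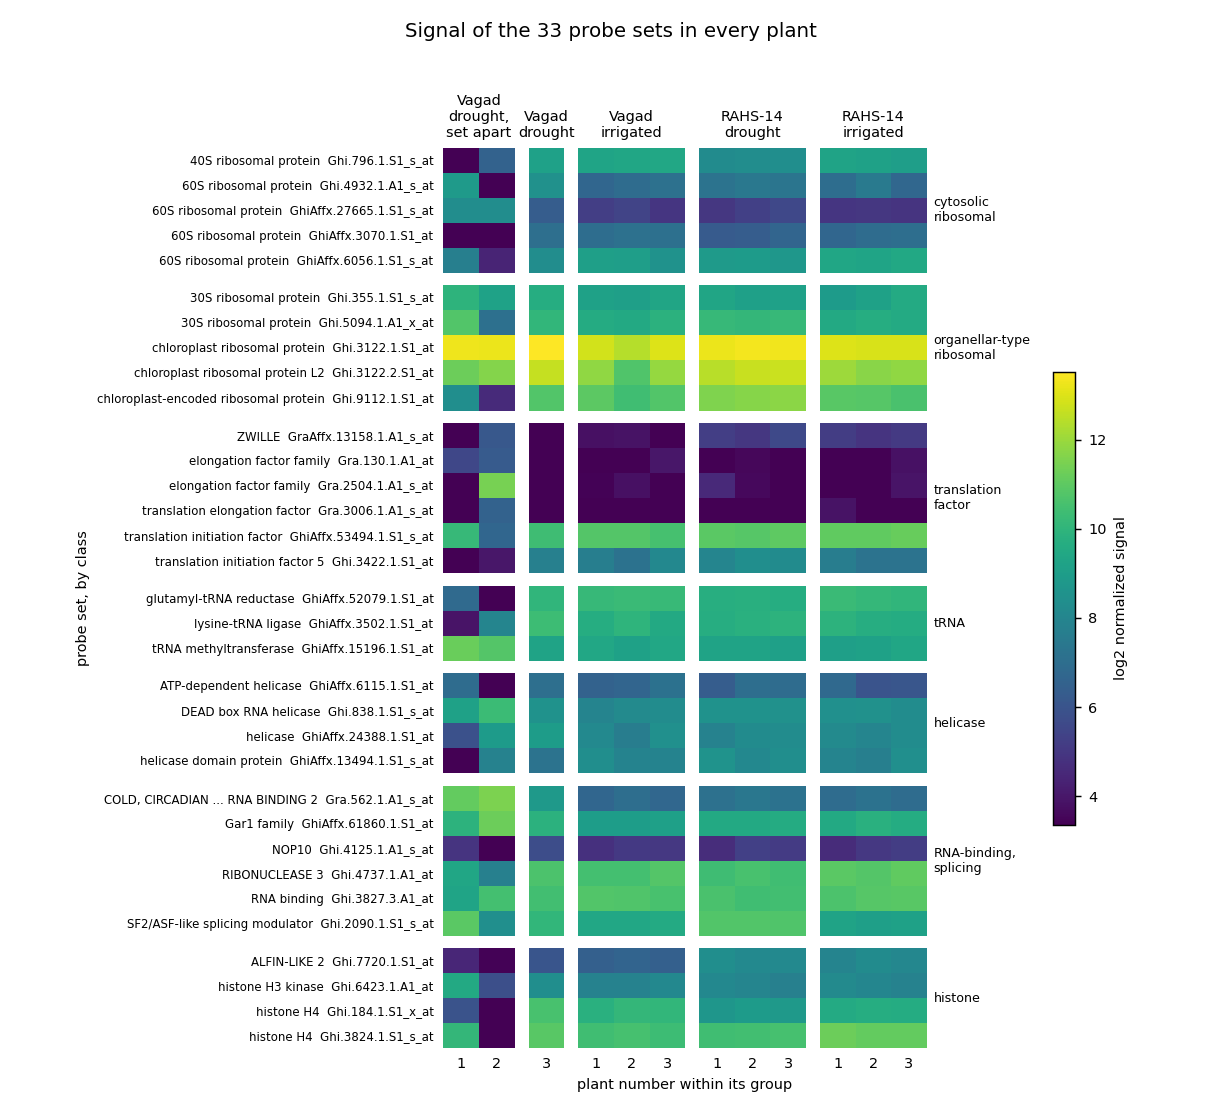
Log2 normalized signal of each of the 33 probe sets (down, by class) in each of the 12 plants (across, by group), with Vagad drought plants 1 and 2 drawn apart at the left. On those plants many members lie far from the other 10 arrays, in both directions, and the elongation factors are at or near the floor of 3.37 on those 10.

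Cytosolic ribosomal proteins did not move as one. Of the 4 tested, 3 fell under drought in RAHS-14 and none rose, beside 18.2% lower and 18.7% higher of all probe sets at any fold. In Vagad plant 3, 1 rose and none fell, beside 14.8% higher and 15% lower. The 40S protein Ghi.796.1.S1_s_at, a small-subunit protein, had the largest fall of the 4: it read 8.24, 8.31 and 8.34 in RAHS-14 drought plants, against 9.26, 9.16 and 9.02 in RAHS-14 irrigated plants. The groups do not overlap, and the difference was -0.85 ± 0.08 (SE; adjusted p = 7.09e-05), a fold of 1.81 and so under the limit for a call. In Vagad it read 9.12 in drought plant 3, against 9.31, 9.36 and 9.41 in irrigated plants, a difference of -0.24 (adjusted p = 0.148). Vagad drought plants 1 and 2 read 3.37 and 6.53, which is the floor and far below every other plant. The response of Vagad minus that of RAHS-14 was 0.62 ± 0.14, and -2.17 with all 12 arrays.

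The large-subunit protein Ghi.4932.1.A1_s_at was called in Vagad. It read 8.47 in Vagad drought plant 3, against 6.67, 6.92 and 7.12 in Vagad irrigated plants. RAHS-14 plants read 7.22, 7.41 and 7.33 under drought, against 6.95, 7.49 and 6.70 irrigated. Plant 3 was thus above all 9 plants of the other groups, and the RAHS-14 groups overlap. The difference was 1.57 ± 0.28 in Vagad (adjusted p = 0.00390) and 0.27 ± 0.20 in RAHS-14 (adjusted p = 0.309), and the difference of the responses was 1.296 ± 0.34. The plants set apart split, with 8.85 in plant 1 and 3.37, the floor, in plant 2. All 12 arrays together gave a Vagad difference of 0.00, and that of the responses was -0.28. On the 10 arrays, the difference of the responses was 1.07 to 1.47 with 1 plant left out in turn, and was not called without Vagad irrigated plant 1 or 2 or any one of the RAHS-14 drought plants. Another probe set of the same transcript cluster, Ghi.4932.1.S1_s_at, which the tables do not annotate, read 12.02 in Vagad drought plant 3, against 11.99, 12.24 and 12.38 in Vagad irrigated plants, a difference of -0.18 (adjusted p = 0.354).

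The 60S protein GhiAffx.27665.1.S1_s_at passed the limit on 1 of the 10 arrays and was not tested in the fit. It read 6.33 in Vagad drought plant 3, against 5.23, 5.39 and 4.94 in Vagad irrigated plants, and 4.97, 5.31 and 5.57 in RAHS-14 drought plants, against 4.94, 4.98 and 4.90 in RAHS-14 irrigated plants. Plants 1 and 2 of Vagad drought both read 8.30, so all 3 Vagad drought plants were above the 9 others. In a fit without the filter on dim signals, the Vagad difference was 1.14 and that of RAHS-14 0.34. No test is given, since the only array on which it passed the limit was that of Vagad drought plant 3. The last pair of 60S proteins fell in RAHS-14, by 0.45 (GhiAffx.3070.1.S1_at, adjusted p = 0.0204) and by 0.54 (GhiAffx.6056.1.S1_s_at, adjusted p = 0.0178). In Vagad plant 3 their differences were -0.02 and -0.56 (adjusted p = 0.946 and 0.0691).

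Of the 5 chloroplast and 30S ribosomal proteins, all tested, 2 rose and none fell in RAHS-14 (18.7% and 18.2% of all probe sets), and 1 rose and none fell in Vagad (14.8% and 15% of all). The median difference was 0.59 in RAHS-14 and 0.46 in Vagad, against 0.00 for all probe sets. The chloroplast-encoded ribosomal protein Ghi.9112.1.S1_at read 11.55, 11.69 and 11.76 in RAHS-14 drought plants, against 10.88, 10.84 and 10.60 in RAHS-14 irrigated plants. The groups are well apart, and the difference was 0.89 ± 0.15 (adjusted p = 0.00175). In Vagad it read 10.75 in drought plant 3, against 10.98, 10.40 and 10.77 in irrigated plants, so plant 3 lay within the irrigated range. Plants 1 and 2 of Vagad drought read 8.33 and 4.58, below every other plant. The difference of the responses was -0.86 ± 0.26.

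A 30S protein, Ghi.5094.1.A1_x_at, read 10.18, 10.10 and 10.18 in RAHS-14 drought plants, against 9.51, 9.66 and 9.52 in RAHS-14 irrigated plants. All drought plants were higher, with a difference of 0.59 ± 0.10 (adjusted p = 0.00214), and in Vagad the difference was 0.41 ± 0.14 (adjusted p = 0.0634). The chloroplast ribosomal protein Ghi.3122.1.S1_at read 13.52 in Vagad drought plant 3, against 12.83, 12.37 and 12.99 in Vagad irrigated plants. It rose by 0.79 ± 0.20 (adjusted p = 0.0197), and plants 1 and 2, at 13.25 and 13.23, were also above the irrigated range. The RAHS-14 difference was 0.36 ± 0.14 (adjusted p = 0.0759). Its companion on the same cluster name, chloroplast ribosomal protein L2 (Ghi.3122.2.S1_at), a protein of the large subunit, differed by 1.13 ± 0.40 in Vagad and 0.74 ± 0.28 in RAHS-14, with adjusted p-values of 0.0640 and 0.0706. Its Vagad irrigated plants spread from 10.71 to 11.90. The second 30S protein, Ghi.355.1.S1_s_at, differed by 0.46 in Vagad and by -0.01 in RAHS-14 (adjusted p = 0.149 and 0.978).

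**Figure D2:**
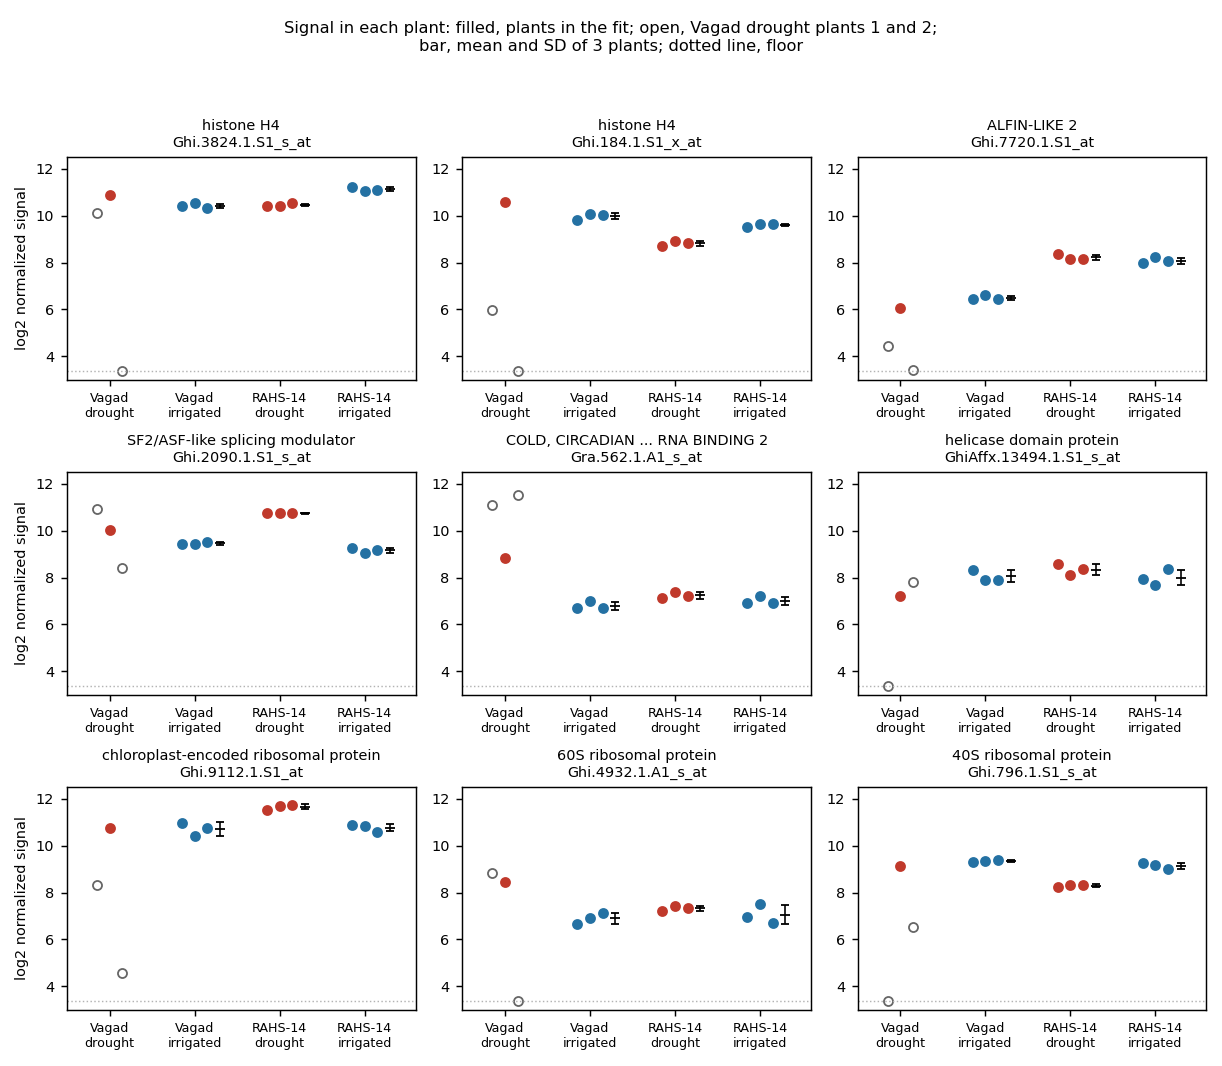
Log2 normalized signal of 9 probe sets in every plant by group, with filled points for plants in the fit, open points for Vagad drought plants 1 and 2, bars for the mean and SD of 3 plants, and a dotted line at the floor. ALFIN-LIKE 2 is separated by accession in both conditions, the SF2/ASF-like modulator by drought among the filled points (the open point of plant 2, at 8.39, lies below the irrigated plants), and the histone H4 pair shows plant 3 of Vagad and the RAHS-14 drought plants on opposite sides of their irrigated plants.

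Translation factors were largely dim. The elongation factors Gra.130.1.A1_at, Gra.2504.1.A1_s_at and Gra.3006.1.A1_s_at, which move the ribosome along the message, were at the floor of 3.37 on 7, 5 and 9 of the 10 arrays, and the highest value among them there was 4.54. Vagad drought plants 1 and 2 read 5.53 and 6.26, 3.37 and 11.45, and 3.37 and 6.52 for them in that order. No fold is given for these. ZWILLE (GraAffx.13158.1.A1_s_at), an Argonaute protein of meristems in Arabidopsis that the tables annotate as an initiation factor, read 3.37 in Vagad drought plant 3, against 5.21, 4.98 and 5.62 in RAHS-14 drought plants. Irrigated plants read 3.76, 3.85 and 3.37 in Vagad, against 5.15, 4.90 and 5.07 in RAHS-14. The accessions do not overlap in either condition on the 10 arrays, though Vagad drought plant 2 read 6.14 and plant 1 was at the floor. It was above the array's median on none of the 10 arrays, and no difference is given, since the Vagad values are at or near the floor.

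Of the 2 initiation factors tested, eukaryotic translation initiation factor 5 (Ghi.3422.1.S1_at), which triggers GTP hydrolysis at the start codon, read 7.97, 8.34 and 8.24 in RAHS-14 drought plants, against 7.62, 7.22 and 7.24 in RAHS-14 irrigated plants. It rose by 0.82 ± 0.22 (adjusted p = 0.0193), with no overlap. In Vagad plant 3 the difference was 0.09 ± 0.32 (adjusted p = 0.858), and the irrigated plants spread from 7.19 to 8.11. The difference of the responses was -0.74. The translation initiation factor GhiAffx.53494.1.S1_s_at differed by -0.37 in Vagad and -0.15 in RAHS-14, with adjusted p-values of 0.0764 and 0.267.

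On the 10 arrays, no enzyme of tRNA reached a fold of 2 between drought and irrigated plants in either accession. Glutamyl-tRNA reductase (GhiAffx.52079.1.S1_at), which uses loaded tRNA for the first committed step of chlorophyll and heme synthesis, read 9.72, 9.76 and 9.67 in RAHS-14 drought plants, against 10.23, 10.13 and 10.02 in RAHS-14 irrigated plants. It fell by 0.41 (adjusted p = 0.00304), and every drought plant was lower. Its Vagad difference was -0.21 (adjusted p = 0.175), with 6.83 and the floor in plants 1 and 2. The lysine-tRNA ligase GhiAffx.3502.1.S1_at, which loads lysine, rose by 0.60 in Vagad plant 3 (adjusted p = 0.0436) and differed by 0.06 in RAHS-14 (adjusted p = 0.755). Vagad drought plants 1 and 2, at 3.90 and 7.99, were below every irrigated plant, and the Vagad difference turned to -2.31 with all 12 arrays. An unannotated probe set of the same cluster name, GhiAffx.3502.2.S1_at, went the other way in Vagad plant 3. It read 8.55 there, against 9.58, 9.46 and 8.79 in Vagad irrigated plants, a difference of -0.72, and differed by -0.38 in RAHS-14. The tRNA methyltransferase GhiAffx.15196.1.S1_at, which methylates adenine in tRNA, read 9.07 to 9.43 over the 10 arrays, with differences of -0.09 in Vagad and -0.02 in RAHS-14. Its levels were 11.20 and 10.80 in Vagad drought plants 1 and 2, above all others.

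Helicases, which unwind paired strands, held 1 member that was called. The helicase domain-containing protein GhiAffx.13494.1.S1_s_at read 7.22 in Vagad drought plant 3, against 8.35, 7.90 and 7.91 in Vagad irrigated plants. RAHS-14 plants read 8.58, 8.11 and 8.35 under drought, against 7.94, 7.70 and 8.37 irrigated. Plant 3 was the lowest of the 10, Vagad drought plant 1 was at the floor and plant 2, at 7.82, lay among the others. The differences were -0.83 ± 0.28 in Vagad and 0.34 ± 0.20 in RAHS-14 (adjusted p = 0.0554 and 0.217), and that of the responses was -1.17 ± 0.35. Over the 9 fits that left out 1 plant each it was -1.36 to -1.02, and the call was lost without Vagad irrigated plant 1 or 2, RAHS-14 drought plant 1 or 3, or RAHS-14 irrigated plant 1 or 2. The helicase GhiAffx.24388.1.S1_at rose by 0.88 ± 0.29 in Vagad plant 3 (adjusted p = 0.0492) and differed by -0.03 in RAHS-14 (adjusted p = 0.935). Vagad drought plants 1 and 2 read 5.90 and 8.90, on either side of the irrigated plants, and the Vagad difference was -0.15 with all 12 arrays. The DEAD box RNA helicase Ghi.838.1.S1_s_at differed by 0.36 and 0.13, and the ATP-dependent helicase GhiAffx.6115.1.S1_at by 0.28 and 0.45, in Vagad and RAHS-14 in turn, none past the limit.

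RNA-binding and splicing proteins held the largest drought responses of the group. The SF2/ASF-like splicing modulator Ghi.2090.1.S1_s_at, of the SR family that marks exons for the spliceosome, read 10.78, 10.75 and 10.74 in RAHS-14 drought plants, against 9.26, 9.07 and 9.17 in RAHS-14 irrigated plants. Every drought plant was far above every irrigated one, with SDs of 0.02 and 0.10. It was the 1 member called in RAHS-14, at 1.59 ± 0.07 (adjusted p = 1.31e-06), a fold of 3.01. In Vagad it read 10.04 in drought plant 3, against 9.43, 9.42 and 9.53 in irrigated plants, and it rose by 0.58 ± 0.10 (adjusted p = 0.00435). The difference of the responses was -1.01 ± 0.13, close to the limit of 1 for a call. It was -1.06 to -0.96 with 1 plant left out in turn, and the call was lost without Vagad irrigated plant 3, RAHS-14 drought plant 1 or RAHS-14 irrigated plant 2. Vagad drought plants 1 and 2 read 10.93 and 8.39, on either side of plant 3. In the fit of all 12 arrays, whose spread is larger, the RAHS-14 difference was the same 1.59 and was not called.

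COLD, CIRCADIAN RHYTHM, AND RNA BINDING 2 (Gra.562.1.A1_s_at) is a glycine-rich protein that in Arabidopsis is clock-controlled, is induced by cold and acts on splicing. It read 8.82 in Vagad drought plant 3, against 6.70, 6.99 and 6.70 in Vagad irrigated plants. RAHS-14 plants read 7.11, 7.40 and 7.21 under drought, against 6.91, 7.21 and 6.92 irrigated. Plants 1 and 2 of Vagad drought read 11.10 and 11.52, so all 3 Vagad drought plants were above all 9 others. On the deposited linear scale the Vagad drought plants were at 1533, 1669 and 416.8, and the highest of the other 9 was 173.9. The Vagad response was 2.02 ± 0.18 (adjusted p = 0.000103), a fold of 4.06, and that of RAHS-14 was 0.23 ± 0.13 (adjusted p = 0.189). The difference of the responses was 1.79 ± 0.22. The Vagad response over all 12 arrays was 3.69 and was called.

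Gar1 (GhiAffx.61860.1.S1_at), a protein of the box H/ACA particle that converts uridine to pseudouridine in ribosomal RNA, read 9.84 in Vagad drought plant 3, against 8.99, 8.98 and 9.09 in Vagad irrigated plants. RAHS-14 plants read 9.51, 9.48 and 9.58 under drought, against 9.51, 9.80 and 9.62 irrigated. Gar1 rose by 0.82 ± 0.12 in Vagad (adjusted p = 0.00192), all 3 Vagad drought plants (9.89 and 11.25 in plants 1 and 2) being above the irrigated ones, and the difference of the responses was 0.94 ± 0.15. NOP10 (Ghi.4125.1.A1_s_at), of the same particle, was not tested in the fit and read 5.73 in Vagad drought plant 3, against 4.61 to 5.31 in the other 9. RIBONUCLEASE 3 (Ghi.4737.1.A1_at), an enzyme that cuts RNA, fell by 0.48 in RAHS-14 (adjusted p = 0.0117) and differed by 0.05 in Vagad. The RNA-binding protein Ghi.3827.3.A1_at fell by 0.31 in RAHS-14 (adjusted p = 0.0359) and differed by -0.25 in Vagad. Unannotated probe sets of the same cluster name did not share 1 direction. In RAHS-14 and Vagad in turn, the differences were 0.23 and 0.27 (Ghi.3827.2.A1_a_at), 0.17 and 0.26 (Ghi.3827.4.A1_a_at), and -0.15 and -0.38 (Ghi.3827.1.A1_at).

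**Figure D3:**
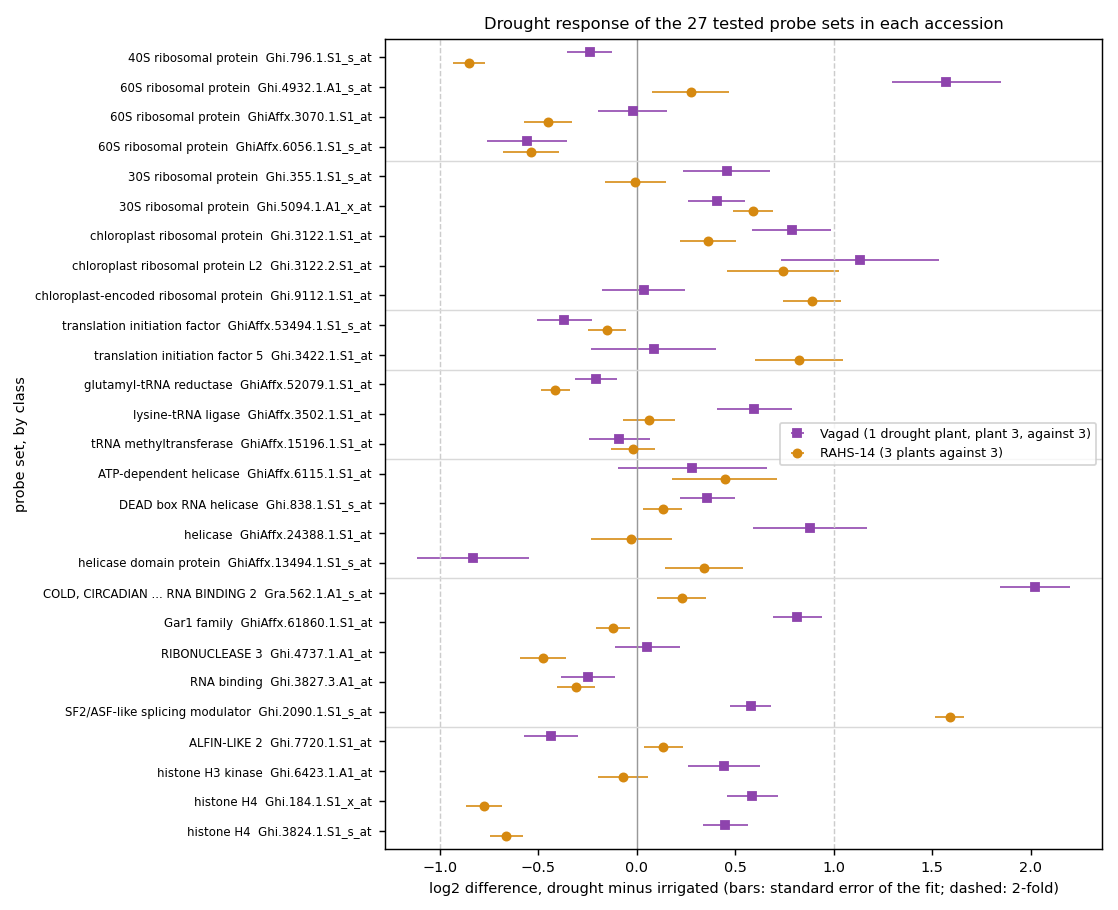
Log2 difference between drought and irrigated plants of each of the 27 tested probe sets, with squares for Vagad (plant 3 against 3 plants) and circles for RAHS-14 (3 against 3). Bars are standard errors of the fit and dashed lines mark a fold of 2. Outside the dashed lines lie COLD, CIRCADIAN RHYTHM, AND RNA BINDING 2 at 2.02, the 60S protein Ghi.4932.1.A1_s_at at 1.57 and chloroplast ribosomal protein L2 at 1.13 in Vagad, and the SF2/ASF-like modulator at 1.59 in RAHS-14.

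Both histone H4 probe sets, which read the core histone at the centre of the nucleosome, moved in opposite directions in the accessions. Ghi.184.1.S1_x_at read 10.57 in Vagad drought plant 3, against 9.82, 10.08 and 10.04 in Vagad irrigated plants, and 8.72, 8.91 and 8.84 in RAHS-14 drought plants, against 9.53, 9.63 and 9.63 in RAHS-14 irrigated plants. It rose by 0.59 ± 0.13 in Vagad (adjusted p = 0.0107) and fell by 0.78 in RAHS-14 (adjusted p = 0.000252), and the difference of the responses was 1.36 ± 0.16. The second H4 probe set, Ghi.3824.1.S1_s_at, read 10.87 in Vagad drought plant 3, against 10.40, 10.53 and 10.33 in Vagad irrigated plants, and 10.42, 10.43 and 10.53 in RAHS-14 drought plants, against 11.22, 11.07 and 11.08 in RAHS-14 irrigated plants. It rose by 0.45 ± 0.12 in Vagad (adjusted p = 0.0201) and fell by 0.66 in RAHS-14 (adjusted p = 0.000330), and the difference of the responses was 1.11 ± 0.14.

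The plants set apart went the other way. For Ghi.184.1.S1_x_at they read 5.98 and 3.37, and for Ghi.3824.1.S1_s_at 10.10 and 3.37, each below every plant in the fit. Over all 12 arrays the Vagad differences were -3.34 and -2.31 and those of the responses -2.56 and -1.65, all with the sign turned and none called. The RAHS-14 fall uses none of these plants. Histone H4 is made by many near-identical genes, and the endings _s_at and _x_at mark probe sets whose probes match several transcripts, so which copies were read is uncertain. The histone H3 kinase Ghi.6423.1.A1_at, annotated as specific for serine in the H3 tail, read 8.36 in Vagad drought plant 3, against 7.83, 7.81 and 8.10 in Vagad irrigated plants. Its differences were 0.44 in Vagad and -0.07 in RAHS-14 (adjusted p = 0.0988 and 0.711).

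ALFIN-LIKE 2 (Ghi.7720.1.S1_at) encodes a plant protein with a PHD finger that binds histone H3 methylated on lysine, and it set the accessions apart in both conditions. It read 6.06 in Vagad drought plant 3, against 8.35, 8.16 and 8.16 in RAHS-14 drought plants. In the irrigated condition Vagad plants read 6.44, 6.60 and 6.43, against 7.96, 8.22 and 8.07 in RAHS-14 plants. Every Vagad plant was below every RAHS-14 plant, including plants 1 and 2 of Vagad drought at 4.44 and 3.43. On the deposited linear scale Vagad plants in the fit were at 68.5 to 92.9, against 259.3 to 326.3 in RAHS-14. Its table was that of the irrigated condition alone, where the difference was -1.59 (given without a test). The drought difference was in plants not used to choose it, and was -2.16 ± 0.14 (adjusted p = 6.53e-05), a fold of 4.48 lower in Vagad. It was also called with all 12 arrays, at -3.58 (adjusted p = 0.0160), but not with array weights, at -3.40 (adjusted p = 0.274), nor by the methods' t-test on 12 arrays after adjustment (adjusted p = 0.442). Drought moved it little: by -0.44 in Vagad plant 3 (adjusted p = 0.0429) and by 0.14 in RAHS-14 (adjusted p = 0.313).

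For members found in tables of a single condition, the accession difference in the other condition is given below. Those plants were compared by the study too, and absence from their tables is part of what placed a member here. The counts and medians are thus not independent of the choice, and are a description. Of the 11 tested members from the irrigated condition alone, none was higher and 2 were lower in Vagad under drought, beside 8.51% of all probe sets called in that comparison (3.4% higher and 5.11% lower). These were ALFIN-LIKE 2 and the helicase domain-containing protein GhiAffx.13494.1.S1_s_at, at -1.12 ± 0.28. The helicase was not called with all 12 arrays, with array weights or without the filter. It was also not called by either form of the methods' t-test, or at an adjusted p under 0.01. At any fold, 2 were higher (the 40S protein Ghi.796.1.S1_s_at at 0.83, adjusted p = 0.00178, and the 60S protein GhiAffx.3070.1.S1_at at 0.62, adjusted p = 0.0309) and 3 lower, beside 26.7% of all (12.9% higher and 13.8% lower). The third lower one was the translation initiation factor GhiAffx.53494.1.S1_s_at at -0.58 (adjusted p = 0.0176). The median of the 11 was -0.04, against 0.01 for all probe sets. With all 12 arrays, the 40S protein turned to -1.95, the 60S protein to -1.82 and the median of the 11 was -1.82, against -0.75 for all. Of the 2 tested members that came from the table of genes higher in Vagad, both had a lower value in Vagad plant 3, and of the 9 from the table of genes higher in RAHS-14, 5 were higher in Vagad plant 3 and 4 lower.

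Of the 12 tested members from the drought condition alone, none was called between irrigated plants, beside 3.74% of all probe sets. They were absent from the tables of the irrigated condition, made from these same plants. A lack of calls here is thus partly set by the grouping, and nothing is read from it. At an unadjusted p under 0.05 and the same fold none was called either. At any fold, 2 were higher and 2 lower in Vagad, beside 20.4% of all (10.4% higher and 9.93% lower). The higher ones were the SF2/ASF-like modulator at 0.29 (adjusted p = 0.0254) and histone H4 Ghi.184.1.S1_x_at at 0.38 (adjusted p = 0.0210). The lower ones were Gar1 at -0.62 (adjusted p = 0.00172) and histone H4 Ghi.3824.1.S1_s_at at -0.70 (adjusted p = 0.000587). The H4 pair thus differed between irrigated accessions in opposite directions. Of the 27 in all, 1 was called in the irrigated condition and 5 under drought (3 higher and 2 lower in Vagad plant 3), counts that include the comparisons that chose the members. All 12 arrays together gave none of the 27 in the irrigated condition and 2 under drought, beside 0.222% and 2.89% of all.

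For the members whose own table was that of the drought condition, the values of plant 3 are a description. Among the 9 tested from the table of genes higher in RAHS-14 alone, 7 were higher in Vagad plant 3 and 2 lower, with a median of 0.41. COLD, CIRCADIAN RHYTHM, AND RNA BINDING 2 stood at 1.58, histone H4 Ghi.184.1.S1_x_at at 1.74, the 60S protein Ghi.4932.1.A1_s_at at 1.15 and the chloroplast-encoded ribosomal protein at -0.91. On all 12 arrays the median of these 9 was -0.43, and over all probe sets it was -0.75. For COLD, CIRCADIAN RHYTHM, AND RNA BINDING 2, Gar1 and the untested 60S protein GhiAffx.27665.1.S1_s_at, the order was the reverse of that table in every drought plant. All 3 Vagad drought plants read above all RAHS-14 drought plants. No other member of that table showed this in every plant. The same order was not counted over all probe sets, and plants 1 and 2 are the arrays set apart. Nothing is therefore read from the number of such members. Of the 3 from the table of genes higher in Vagad alone, the SF2/ASF-like modulator stood at -0.72, RIBONUCLEASE 3 at 0.19 and the histone kinase at 0.41.

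**Figure D4:**
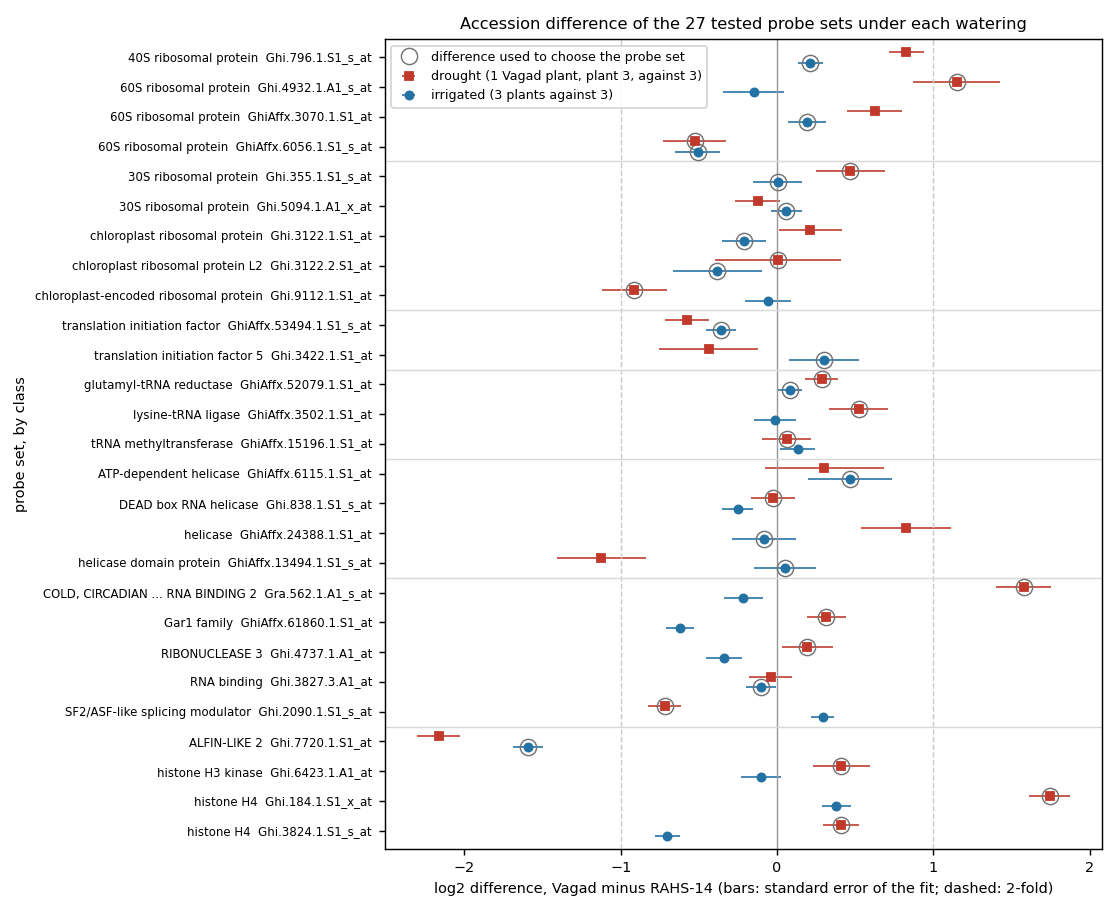
Log2 difference of Vagad minus RAHS-14 of each of the 27 tested probe sets, with squares for drought (plant 3 against 3 plants) and circles for irrigated (3 against 3), standard errors of the fit as bars, dashed lines at a fold of 2, and a ring around each difference that placed the probe set in a table. ALFIN-LIKE 2, at -2.16 and -1.59, is past the dashed line in both conditions, and 5 of the squares are past it.

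The difference of the drought responses passed the limits of a call for 6 of the 27 members, 4 higher and 2 lower in Vagad. That is 22.2%, and the share over all probe sets tested was 8.77% (4.37% higher and 4.4% lower), but each difference contains the accession difference that chose the member, so nothing is read from this share. The 6 were COLD, CIRCADIAN RHYTHM, AND RNA BINDING 2, both histone H4 probe sets, the 60S protein Ghi.4932.1.A1_s_at, the SF2/ASF-like modulator and the helicase domain-containing protein. Of these, 5 came from tables of the drought condition. The call rests on plant 3 alone, and a fit of all 12 arrays called none of the 6, and 0.151% of all probe sets.

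Other genes of RNA in the same tables, 18 probe sets that the words above do not catch, held 14 that were tested. Under drought against irrigation, none was called in RAHS-14, beside 8.08% of all, and 2 were called in Vagad plant 3, 14.3%, beside 10.3% of all. HIGH MOBILITY GROUP B 3 (GraAffx.33550.1.A1_s_at), a DNA-bending chromatin protein, read 8.80 in Vagad drought plant 3, against 5.66, 6.41 and 5.33 in Vagad irrigated plants, a difference of 2.99 ± 0.37 (adjusted p = 0.000642), with 9.52 and 9.28 in plants 1 and 2. The pentatricopeptide protein GhiAffx.6660.1.S1_at, of a family that edits and splices organelle RNA, was the other. It was above the array's median on 3 of the 10 arrays, all irrigated, so its test is not given: it read 4.59 in Vagad drought plant 3, against 5.82, 5.77 and 6.56 in Vagad irrigated plants. Of 8 unannotated probe sets that share a cluster name with a member, 6 were tested. Ghi.3824.2.S1_at, of the cluster of the second H4 probe set, passed the filter on RAHS-14 arrays alone and is given no test. It read 4.64 in Vagad drought plant 3, against 5.94 to 6.97 in RAHS-14 drought plants, and 4.77 to 5.12 in Vagad irrigated plants, against 6.18 to 6.66 in RAHS-14 irrigated plants. The 5 others were called in none of the comparisons.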

How the data were processed

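Leaf RNA of 12 potted cotton plants was labelled and read on 12 Affymetrix Cotton Genome arrays, each for a single plant. The deposited values are intensity values made by the authors with the MAS5 algorithm, linear and scaled to the same trimmed mean of 500.1 on every array, without detection calls. The methods name filtered RMA values for the authors' own tests, which are not used here. Groups were taken from the sample titles, which say tolerant or sensitive, and the accession names from the methods. The members and the related lists were chosen with earlier results of these data known.

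With R 4.3.3 and limma 3.58.1, 10 arrays were quantile normalized, and Vagad drought plants 1 and 2 were mapped to the same quantiles and left out of the fit. Signals below 10.32 (3.37 on the log2 scale), the floor, were set to it. The filter kept 12599 probe sets, those above an array's median 3 times or more among the 10. The 4 group means were fitted together, and limma's two-sided moderated test gave 5 contrasts, each with Benjamini-Hochberg adjustment across the 12599. Errors given with ± are standard errors of the fit unless named SD. The fit was tested before use on simulated data with changes placed in RAHS-14 drought, for RAHS-14 drought minus irrigated alone. The contrasts that use the single Vagad drought array were not tested in this way. The methods' t-test is an alternative.

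Every member is named at least once. Values in every plant are given for ALFIN-LIKE 2, COLD, CIRCADIAN RHYTHM, AND RNA BINDING 2 and the 60S protein GhiAffx.27665.1.S1_s_at, for members called in any contrast, and for others chosen after their values were seen. The 3 plants of a group are stated to be biological replicates. Equal replicate numbers do not pair plants: over 9 pairs of arrays with the same number the correlation of residuals was -0.09 to 0.06. Gene names are the study's annotation, mostly by similarity to Arabidopsis. No member stands in the platform table used here, which lists 756 probe sets, and no sequence is printed. The number of arrays limits the precision. Plots were made in Python 3.11.15 (matplotlib 3.10.9).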

Additional observations from a re-analysis of the deposited data

Results flagged for a closer look

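For 6 members the difference between the accessions in drought response passed the limits of the fit (limma, adjusted p under 0.05, fold of 2 or more). It contains the accession difference that chose each of them, so it is a description and no independent test. Vagad minus RAHS-14, it was 1.79 for COLD, CIRCADIAN RHYTHM, AND RNA BINDING 2, 1.36 and 1.11 for the histone H4 probe sets Ghi.184.1.S1_x_at and Ghi.3824.1.S1_s_at, 1.296 for the 60S protein Ghi.4932.1.A1_s_at, -1.01 for the SF2/ASF-like splicing modulator and -1.17 for the helicase domain-containing protein. Each rests on Vagad drought plant 3.

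Signals outside the fit drew attention where either of Vagad drought plants 1 and 2 was more than 2-fold above the highest of the 10 other plants. The higher of these plants read 11.25 for Gar1 (highest of the 10, 9.84), 11.52 for COLD, CIRCADIAN RHYTHM, AND RNA BINDING 2 (8.82) and 8.30 for the 60S protein GhiAffx.27665.1.S1_s_at (6.33). It read 10.27 for the DEAD box RNA helicase (8.56), 9.50 for the histone H3 kinase (8.36) and 11.20 for the tRNA methyltransferase (9.43). Among the elongation factors it read 6.26 for Gra.130.1.A1_at (3.99), 11.45 for Gra.2504.1.A1_s_at (4.54) and 6.52 for Gra.3006.1.A1_s_at (3.86). Groups of 3 plants were not searched for single outlying plants.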

How the results depend on the processing

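The number of members called, on the 10 arrays, was 1 for drought in RAHS-14, 2 for drought in Vagad, 1 between the irrigated accessions, 5 between them under drought and 6 for the difference of the responses. With all 12 arrays these were 0, 1, 0, 2 and 0, the spread being larger, and with array weights 0 in the last 2 and in Vagad. The methods' t-test on 12 arrays called 2 between the accessions under drought unadjusted, and 0 after adjustment there and in Vagad. With no minimum fold the counts were 12, 10, 7 and 11 for the first 4 comparisons. Values as deposited gave 4 in Vagad, no filter gave 2 between the irrigated accessions, and an adjusted p under 0.01 gave 3 under drought. Leaving out each plant in turn gave 1 to 1 in RAHS-14, 2 to 4 in Vagad (4 without Vagad irrigated plant 3), 1 to 1 irrigated, 5 to 5 under drought and 3 to 6 for the responses (3 without RAHS-14 drought plant 1). Without Vagad drought plant 3 no contrast of that group could be fitted. The counts between the accessions and for the responses include the comparisons that chose members, so they are a description and no independent test. Replicate number as a block gave 1, 2, 1, 5 and 6, and changed no call.

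With all 12 arrays, 18 of the 27 members turned sign in at least 1 comparison with Vagad drought plants, 12 for drought in Vagad, 13 between the accessions under drought and 12 for the responses, and none in the other comparisons. Of those past an adjusted p of 0.05 on the 10 arrays these were 5 of 10, 5 of 11 and 4 of 9. Among the 7 called members 3 turned. The 60S protein Ghi.4932.1.A1_s_at gave -0.0018 in Vagad and -0.43 between the accessions under drought, also by both forms of the methods' t-test, and -0.28 for the responses. Histone H4 Ghi.184.1.S1_x_at gave -2.19 under drought with all 12 arrays and by both forms of the t-test, -1.75 with weights, and -2.56 and -2.10 for the responses with all 12 arrays and with weights. Histone H4 Ghi.3824.1.S1_s_at gave -1.65 and -0.69 for the responses. In each of these 3, plants 1 and 2 of Vagad drought lie below plant 3 or split around it.

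The drought values of Vagad rest on 1 plant, and no setting gives them a spread of their own. With each plant left out, ALFIN-LIKE 2 was -2.20 to -2.10 under drought and the SF2/ASF-like modulator 1.54 to 1.64 in RAHS-14, all called. Values near the floor carry no order.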
